A study of Oryctolagus cuniculus with 6 samples.

Results

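This report describes 10 genes of epithelial-mesenchymal transition (EMT) and of myofibroblasts in rabbit retina, taken by symbol from the deposited tables. They are the transcription factors SNAI2, ZEB1, ZEB2 and TWIST1, the cadherin CDH2, and the contractile genes ACTA2, TAGLN, CNN1, TPM1 and MYL9. All 10 were found among the 28788 genes of the files. The study compared 3 retina samples labelled normal with 3 labelled PVR, for proliferative vitreoretinopathy. In the PVR model, adult rabbits had the sclera punctured, a portion of vitreous withdrawn and platelet-rich plasma injected in its place. No operation or injection is named for the normal samples, so the puncture, the loss of vitreous and the plasma cannot be told apart. The strain, the day of collection and whether each sample is a separate animal are not given in the sources used here. The p-values therefore measure the spread between these samples, which may be in part technical.

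EMT is the change by which epithelial cells lose their junctions and polarity and take on a migratory, matrix-producing state. The SNAI, ZEB and TWIST factors bind E-box sequences and repress epithelial genes such as CDH1, which encodes E-cadherin, while CDH2, which encodes N-cadherin, is typical of mesenchymal and neural cells. Cells that go on to become myofibroblasts assemble smooth-muscle actin fibres and can contract a scar or an epiretinal membrane. In the eye, the retinal pigment epithelium, Mueller glia and fibroblasts are the cells in which this change is usually studied. The same genes are also used by cells that do not undergo EMT: neurons and glia make CDH2 and ZEB2, and vascular smooth muscle and pericytes make the contractile genes.

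The libraries held between 31904593 and 43035080 counted reads. Photoreceptor genes marked all 6 samples as retina, with the arrestin gene SAG at a mean FPKM of 1550 in normal and 1520 in PVR retina. Single libraries stood apart in markers of neighbouring tissues. Normal replicate 2 carried 32700 CPM of 9 lens genes, against 12.2 to 300 CPM in the other samples. Normal replicate 1 had 414 counts of the skeletal muscle actin ACTA1, against 1 to 11 elsewhere. Because bulk tissue was sequenced, fewer cells of a type and less RNA per cell cannot be told apart.

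The 10 genes covered a wide span of levels. Levels of different genes are compared here in FPKM, which is the read count scaled to the gene's length and to the total count of the library. In the normal samples, CDH2 was the most abundant at 49.1 ± 2.15 FPKM (SD, n = 3), followed by ZEB2 at 21.1 ± 1.12 and TPM1 at 13.7 ± 2.38. ZEB1 stood at 11.2 ± 0.742 FPKM, and its samples overlapped with those of TPM1. MYL9, ACTA2 and TAGLN followed with means of 2.28, 1.58 and 0.887 FPKM, and each of them overlapped with its neighbour in this order. CNN1 at 0.438 FPKM overlapped with TAGLN but was above SNAI2 at 0.23 FPKM in every normal sample. TWIST1 was lowest, with 0.0537 FPKM. In the PVR samples the order of the means differed in 1 place, with ACTA2 above MYL9, and the samples of that pair overlapped.

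**Figure D1:**
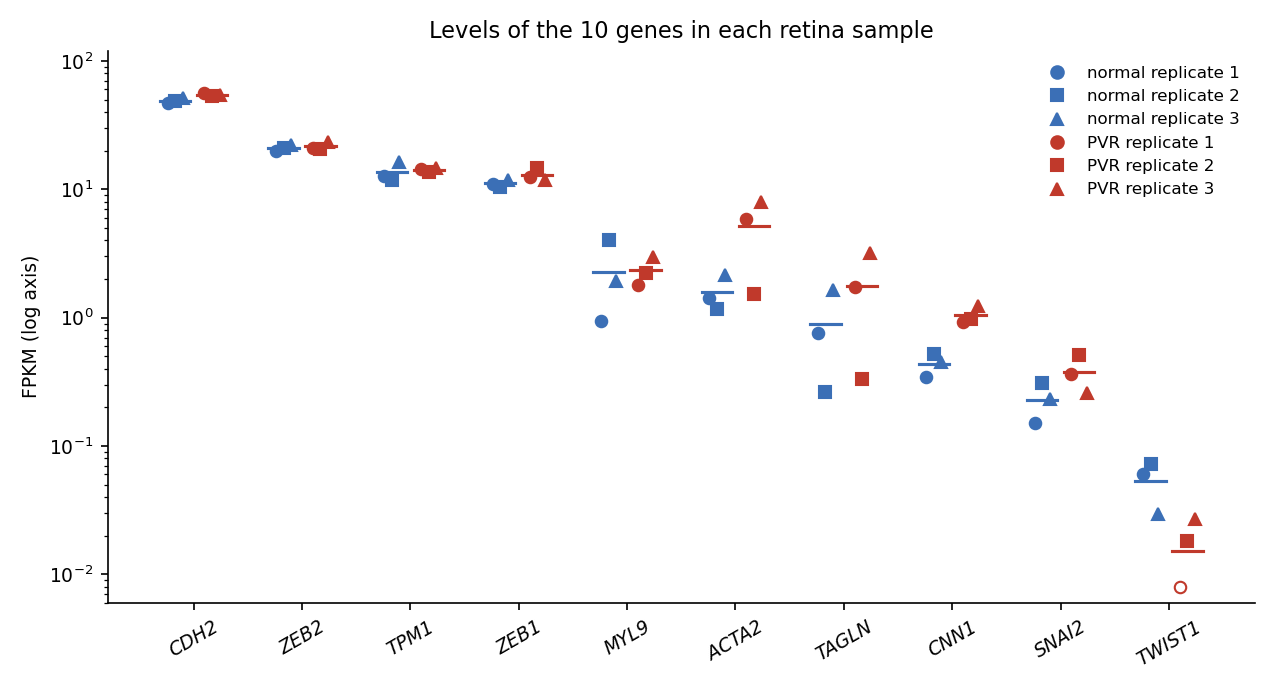
FPKM (log axis) of the 10 genes in each sample, with circles, squares and triangles for replicates 1, 2 and 3, blue for normal and red for PVR, and a line at each mean. The open symbol at the bottom is TWIST1 in PVR replicate 1, which had 0 counts. The genes from CDH2 to ZEB1 sit close together in all 6 samples, whereas ACTA2 and TAGLN are spread out in the PVR samples.

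With edgeR, none of the 9 genes tested was called as changed in PVR. TWIST1 was under the filter on low counts, and 0 of the other 9 passed an adjusted p of 0.05 with edgeR's quasi-likelihood test, with or without the fold threshold of 1 on the log2 scale. With DESeq2, the tool that the study names for its rabbit data at these same thresholds, the number was 1 (ACTA2, higher). Of all genes that DESeq2 tested, 8.75% passed the adjusted p and 2.81% were called higher past both thresholds. With limma-voom the number of members was 0. Over all 18697 genes tested with edgeR, 0.690% were called higher and 0.316% lower past both thresholds, and 1.70% passed the adjusted p alone. At an unadjusted p under 0.05, edgeR gave 2 of the 9 genes, ACTA2 and CNN1. That is 22.2%, beside 21.2% of all genes tested. In 1 of the 9 genes, CNN1, all PVR samples were above all normal samples in TMM-scaled CPM. That is 11.1%, beside 13.4% of all genes tested, and 14.6% of all genes were separated in the lower direction, against none of the 9. By these counts the genes were close to the background of the whole table. Their median log2 fold change was 0.15, beside -0.01 for all genes tested, and 6 of the 9 values were above 0.

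**Figure D2:**
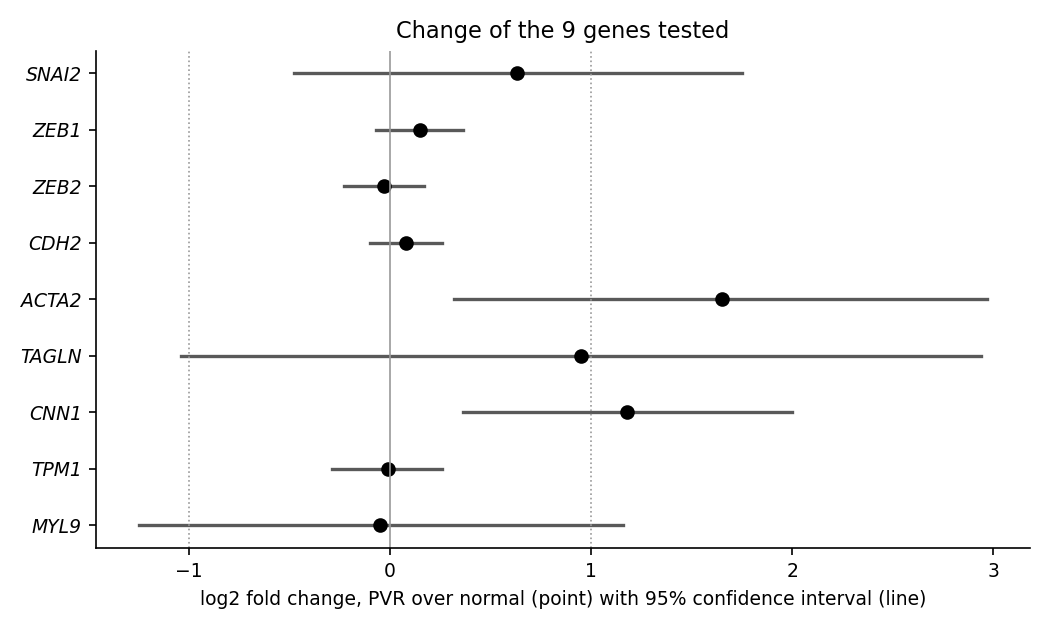
The log2 fold change of PVR over normal (point) with its 95% confidence interval (line) from edgeR for the 9 genes tested. Dotted lines mark the fold threshold of 1 in either direction. The intervals of ZEB1, ZEB2, CDH2 and TPM1 lie between the dotted lines, and those of the other genes reach past at least 1 of them.

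Among the transcription factors, ZEB1 and ZEB2 were well expressed and nearly level. ZEB2 encodes a zinc-finger E-box repressor that glial and neural crest cells also use. It had 7409, 8122 and 8467 counts in normal retina against 6341, 6376 and 9496 in PVR retina. Scaled to library size this was 195, 209 and 212 CPM against 194, 190 and 219 CPM, so the groups overlapped. PVR retina differed from normal in ZEB2 by a log2 value of -0.03 (standard error 0.09, adjusted p = 0.859 from edgeR), and its 95% confidence interval of the fold ran from 0.85 to 1.13. The whole interval lay inside the fold threshold.

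ZEB1, the paralogue of ZEB2, had FPKM values of 11, 10.5 and 11.9 in normal retina against 12.4, 14.7 and 11.8 in PVR retina. The highest value belonged to PVR replicate 2 and the groups overlapped through PVR replicate 3. On the log2 scale, ZEB1 differed by 0.15 (standard error 0.09, adjusted p = 0.39 from edgeR), with a fold interval from 0.954 to 1.28. Without PVR replicate 2 the log2 fold change was 0.06. Within each sample the FPKM of ZEB2 was 1.81, 2 and 1.86 times that of ZEB1 in the normal retinas and 1.68, 1.41 and 1.97 times in the PVR retinas.

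SNAI2, also called Slug, encodes a repressor of E-cadherin that is used by neural crest cells and fibroblasts. It had 12, 26 and 19 counts in normal retina against 24, 34 and 23 in PVR retina. At this depth the counting error alone was wide: the 12 counts of normal replicate 1 have an exact 95% Poisson interval of 6.2 to 21, and the 34 counts of PVR replicate 2 one of 23.5 to 47.5. In CPM, PVR replicates 1 and 2 were above every normal sample and PVR replicate 3 was not. SNAI2 gave a log2 ratio of PVR to normal of 0.63 (standard error 0.48, adjusted p = 0.47 from edgeR), and the fold interval from 0.715 to 3.36 takes in no change as well as a large one.

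TWIST1, a basic helix-loop-helix factor of mesoderm and neural crest, was at the limit of detection. It had 4, 5 and 2 counts in normal retina against 0, 1 and 2 in PVR retina. Summed over the samples this was 11 counts against 3, a ratio of 0.291 after scaling, with an exact 95% interval of 0.0521 to 1.1 that covers counting error alone. In CPM all PVR samples were below all normal ones, but the closest pair, PVR replicate 3 and normal replicate 3, had 2 counts each (0.0461 and 0.05 CPM). No difference could be established at this depth. Without the filter on low counts, edgeR gave an adjusted p of 0.501 for TWIST1.

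The cadherin CDH2, which holds Mueller glia and photoreceptors together at the outer limiting membrane, was high and steady. Its FPKM was 47.1, 48.9 and 51.4 in normal retina against 55.8, 53.3 and 54.7 in PVR retina. On this scale the groups did not overlap, with PVR the higher. With TMM scaling the values were 236, 251 and 252 CPM against 266, 251 and 265 CPM, and PVR replicate 2 lay within the normal range. For CDH2, edgeR's log2 estimate came to 0.08 (standard error 0.08, adjusted p = 0.566 from edgeR), with a fold interval from 0.933 to 1.2. On the log2(FPKM + 1) scale the log2 fold change was 0.15, with an adjusted p of 0.253 from limma.

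CDH1, the epithelial counterpart of CDH2, was far lower but differed more between the groups. It was looked at singly after its values had been seen. Its counts were 30, 38 and 27 in normal retina against 136, 236 and 61 in PVR retina, so the groups did not overlap. PVR retina differed from normal in CDH1 by a log2 value of 2.36 (standard error 0.57), with an adjusted p of 0.0859 from edgeR, which misses the threshold. The adjusted p was 0.000457 with DESeq2 and reached 0.287 without PVR replicate 1, and it was under 0.05 in 2 of 15 alternatives. In FPKM, CDH2 exceeded CDH1 by 286, 246 and 357 times in the normal samples and by 61.2, 34.2 and 181 times in the PVR samples.

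Among the contractile genes, ACTA2 and TAGLN varied widely between samples, and in these genes PVR replicate 2 did not follow the other PVR samples. ACTA2 encodes smooth-muscle α-actin, the defining protein of myofibroblast stress fibres. Its counts were 75, 64 and 116 in normal retina against 252, 67 and 466 in PVR retina. In FPKM this was 1.42, 1.16 and 2.14 against 5.85, 1.53 and 8.02. PVR replicates 1 and 3 were above every normal sample, whereas PVR replicate 2 lay inside the normal range. The highest PVR sample was 5.23 times the lowest, compared with 1.85 times in the normal samples. The log2 estimate for ACTA2 was 1.65 (standard error 0.57), and edgeR's p of 0.0213 became 0.166 after adjustment. Its fold interval was wide, from 1.25 to 7.85. The call depended on the tool, as DESeq2 gave an adjusted p of 0.0158. Over the 6 edgeR tests with a sample left out, none passed, and the adjusted p was between 0.0545 (without PVR replicate 2) and 0.403. The log2 fold change was 2.08 without PVR replicate 2 and 1.15 without PVR replicate 3.

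TAGLN encodes transgelin, also called SM22α, an actin-binding protein of smooth muscle. It had FPKM values of 0.765, 0.264 and 1.63 in normal retina against 1.74, 0.333 and 3.21 in PVR retina. PVR replicate 3 was highest, PVR replicate 1 was just above normal replicate 3, and PVR replicate 2 was near the lowest normal sample. The PVR samples spanned 9.66 times from lowest to highest and the normal samples 6.19 times. On the log2 scale, TAGLN differed by 0.95 (standard error 0.85, adjusted p = 0.543 from edgeR). It was 0.16 without PVR replicate 3 and 1.72 without normal replicate 3, so single samples on either side set its size.

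CNN1 encodes calponin, which binds actin and damps the myosin motor in differentiated smooth muscle. Of the 9 genes tested, it was the one whose CPM did not overlap between the groups. Its counts were 20, 32 and 27 in normal retina against 44, 47 and 80 in PVR retina. In FPKM the means were 0.438 ± 0.0908 (SD, n = 3) and 1.04 ± 0.172 (SD, n = 3), a ratio of 2.38. PVR replicate 2 shared in this difference, unlike for ACTA2 and TAGLN. CNN1 gave a log2 ratio of PVR to normal of 1.18 (standard error 0.35), and edgeR's p of 0.0112 became 0.127 after adjustment. It stayed between 1.02 and 1.35 with any one sample left out, with adjusted p from 0.163 to 0.341. Over all 15 alternatives its lowest adjusted p was 0.0765, so CNN1 had the smaller spread but passed no test.

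MYL9 encodes the regulatory light chain of smooth-muscle myosin, whose phosphorylation starts contraction. Its FPKM was 0.938, 3.99 and 1.93 in normal retina against 1.8, 2.21 and 2.99 in PVR retina. The highest sample of all was normal replicate 2, the library with the most lens transcripts, and every PVR sample lay within the normal range. For MYL9, edgeR's log2 estimate came to -0.05 (standard error 0.52, adjusted p = 0.969 from edgeR). Without normal replicate 2 it was 0.66, with an adjusted p of 0.491.

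TPM1, a tropomyosin that lies along actin filaments in muscle and non-muscle cells alike, had 1857, 1788 and 2431 counts in normal retina against 1694, 1635 and 2338 in PVR retina. In CPM this was 48.8, 46 and 60.8 against 51.8, 48.7 and 53.9. The PVR samples lay inside the normal range, and normal replicate 3 was highest. PVR retina differed from normal in TPM1 by a log2 value of -0.01 (standard error 0.12, adjusted p = 0.965 from edgeR), with a fold interval from 0.82 to 1.2. The other contractile members, 4 in number, summed to 3.47, 5.93 and 6.15 FPKM in the normal samples and 10.3, 5.04 and 15.5 FPKM in the PVR samples, so TPM1 alone made up most of the contractile total in the normal retina.

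**Figure D3:**
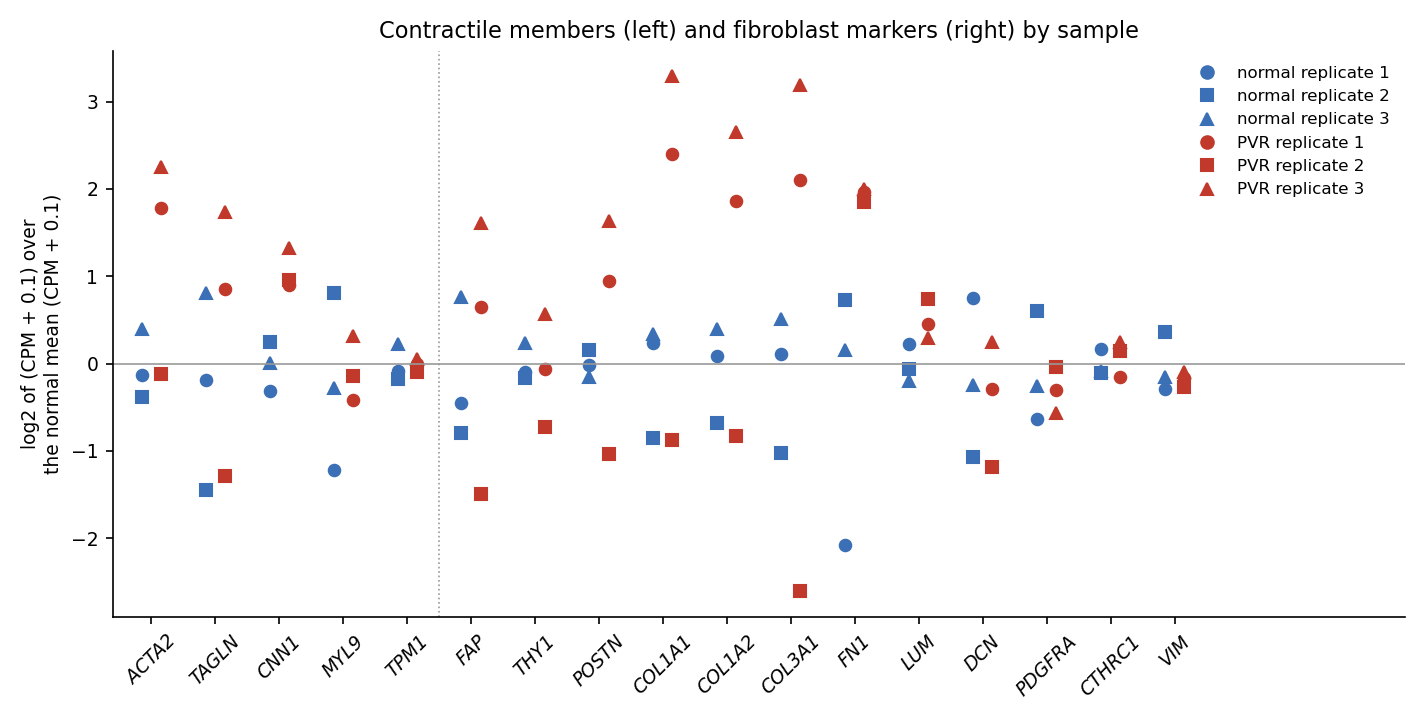
Log2 of the level (CPM + 0.1) in each sample over the mean of the normal samples (CPM + 0.1), for the 5 contractile genes (left of the dotted line) and 12 fibroblast markers (right), with symbols as in the plot of levels. For ACTA2, TAGLN, POSTN, COL1A1, COL1A2 and COL3A1 the red circles and triangles lie above all blue symbols and the red squares (PVR replicate 2) do not.

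The pattern of ACTA2 across the PVR samples was also seen in some fibroblast and contractile genes, and in single genes of other lists. It was searched for after the values had been seen, and is given as a description. In CPM, PVR replicates 1 and 3 were above every normal sample while PVR replicate 2 was not in ACTA2, TAGLN and CDH2. That is 3 of the 9 genes tested, among them ACTA2, which set the pattern, beside 4.11% of all genes tested. CDH2 met it narrowly, with PVR replicate 2 at 251 CPM against 252 CPM in normal replicate 3. In FPKM the PVR samples of CDH2 were all above the normal ones. TAGLN also met it narrowly, with PVR replicate 1 at 2.05 CPM against 1.98 CPM in normal replicate 3. The pattern of ACTA2 held for 4 of 12 fibroblast markers, POSTN, COL1A1, COL1A2 and COL3A1, and for all 4 PVR replicate 2 was below every normal sample in CPM as well. In COL1A1 this was narrow, at 5.65 CPM against 5.76 CPM in normal replicate 2. In FPKM it was above that sample, at 1.21 against 1.13. By CPM the pattern held for 5 of 25 other contractile genes, SYNM, TPM3, FLNA, TNS1 and SYNPO2, and not for the other 8 fibroblast markers. It also held for OCLN, CDH6, KDR and SLC1A3, 1 gene each of the epithelial, cadherin, endothelial and glial lists described below. In FLNA and TPM3, however, the PVR samples lay close together, at 124 to 133 and 14.4 to 16.3 CPM. Normal replicate 2 was at 125 CPM of FLNA and 15.3 CPM of TPM3. In FPKM every PVR sample of these genes was above every normal one, so PVR replicate 2 did not stand apart there. COL1A1, a chain of type I collagen, the main fibre of scar tissue, had 469, 224 and 532 counts in normal retina against 1817, 190 and 4485 in PVR retina. COL3A1, the type III collagen chain of early scars, had 289, 133 and 405 counts in normal retina against 1002, 36 and 2824 in PVR retina. Without PVR replicate 2 the log2 fold change of COL1A1 was 2.92 (adjusted p = 0.041 from edgeR), compared with 2.39 (adjusted p = 0.179) with all samples. ACTG2, the enteric smooth-muscle actin, had 21, 2 and 56 counts in the PVR samples and 1, 2 and 8 in the normal samples. ACTG2, ACTA1 and ACTA2 encode closely related actins, and whether reads were shared among these genes was not tested.

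Of the 12 fibroblast markers tested, 0 passed an adjusted p of 0.05 in either direction with edgeR, where 4 had an unadjusted p under 0.05. Of all genes tested with edgeR, 21.2% had such an unadjusted p, which is the background for this count in each list below as well. DESeq2 gave 1 fibroblast marker higher and limma-voom 0. The median log2 fold change of the 12 markers was 0.69. In FN1, which encodes fibronectin, PVR replicate 2 was also high: its counts were 226, 1641 and 1132 in normal retina against 3272, 3094 and 4410 in PVR retina. On the log2 scale, FN1 differed by 1.94 (standard error 0.57, adjusted p = 0.125 from edgeR). Normal replicate 1 was far below the other normal samples, and without it the difference was 1.48 with an adjusted p of 0.0368. LUM, a small collagen-binding proteoglycan, was separated without overlap by 0.51 on the log2 scale (edgeR's adjusted p = 0.122), and PVR replicate 2 was its highest sample. DCN and PDGFRA, a proteoglycan and a receptor of fibroblasts, each had a log2 value of -0.29 with overlapping groups, which became 0.32 for DCN without normal replicate 1 and 0.15 for PDGFRA without normal replicate 2. VIM and THY1, which Mueller glia and ganglion cells also express, differed by -0.17 and 0.02 on the log2 scale, with overlapping groups, and VIM by 0.05 without normal replicate 2. FN1, DCN, PDGFRA and the collagens were singled out after their values had been seen.

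The other genes of the smooth-muscle contractile apparatus gave 0 genes higher and 1 lower among 25 tested at an adjusted p of 0.05. The lower gene was SMTN, which encodes smoothelin, an actin-associated protein of contractile smooth muscle. SMTN fell from 7.24 ± 0.406 FPKM (SD, n = 3) to 5.05 ± 0.0849 FPKM (SD, n = 3). The log2 difference was -0.59 (standard error 0.11, adjusted p = 0.0475 from edgeR), which does not reach the fold threshold. The adjusted p was under 0.05 in 4 of 15 alternatives and rose to 0.254 without PVR replicate 1. The median log2 fold change of the 25 genes was 0.12, with 13 above 0 and 12 below. MYH11, the smooth-muscle myosin heavy chain and the strictest marker of that cell type, had 121, 73 and 56 counts in normal retina against 45, 114 and 50 in PVR retina, and PVR replicate 2 was the highest PVR sample there. MYH11 gave a log2 ratio of PVR to normal of -0.13 (adjusted p = 0.9 from edgeR), and of 0.27 without normal replicate 1.

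The paralogues of the contractile members are found in many cell types, and TAGLN2 came nearest to a call. TAGLN2, a transgelin of non-muscle cells, had 311, 414 and 321 counts in normal retina against 548, 476 and 778 in PVR retina, a log2 difference of 0.86 (adjusted p = 0.0626 by edgeR and 0.00042 by DESeq2). TAGLN3, the neuronal form, differed by -0.33 on the log2 scale (edgeR's adjusted p = 0.216). CNN3, the calponin of non-muscle cells, was level, at 32.7 and 34.2 FPKM. TPM2, TPM3 and TPM4 had log2 ratios of -0.46, 0.27 and 0.23, and edgeR's adjusted p lay between 0.373 and 0.433. Muscle actin genes are driven by serum response factor (SRF) and its partners MRTFA, MRTFB and MYOCD, of which MRTFA and MRTFB sense free actin. SRF was level (5.12 and 5.43 FPKM), and MYOCD was at the limit of detection with 0 to 4 counts. Of 11 genes for SRF, its partners and actin regulators that were tested, 0 passed in either direction with edgeR, DESeq2 or limma-voom, and 4 had an unadjusted p under 0.05 with edgeR.

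**Figure D4:**
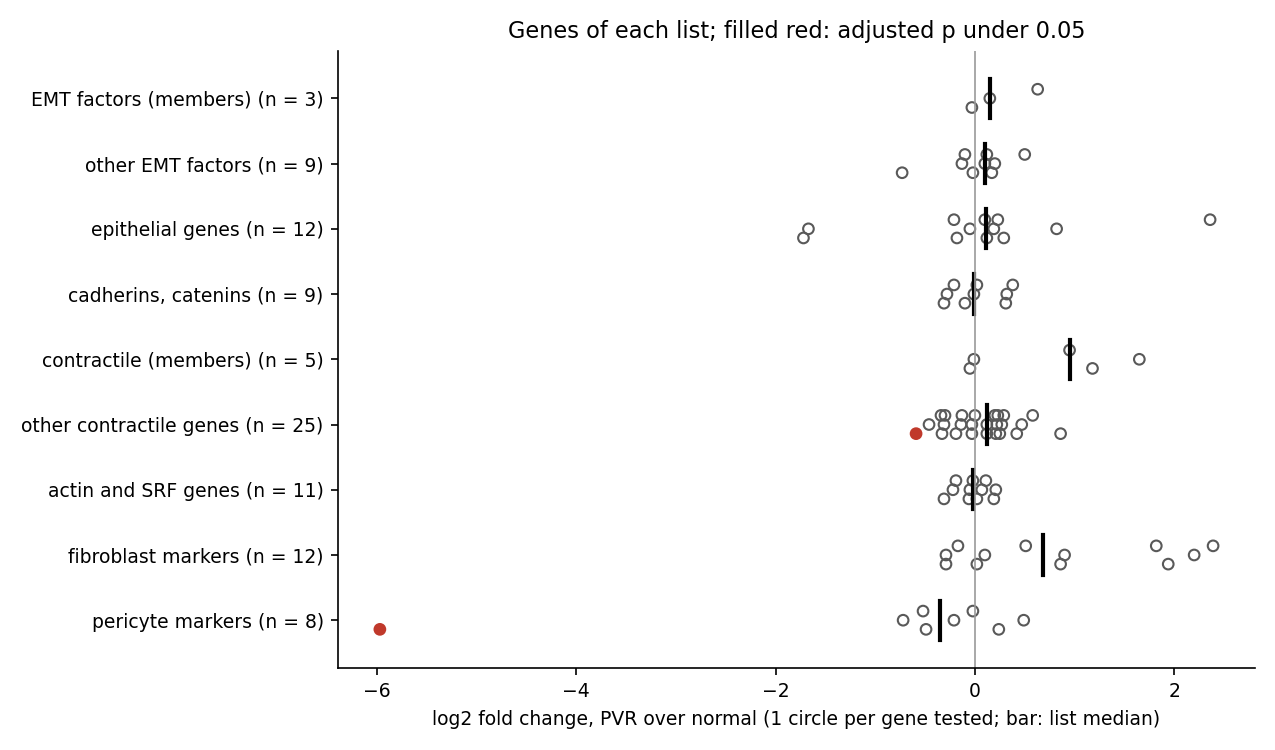
Log2 fold change of PVR over normal for each gene tested, 1 circle per gene, by list, with a bar at the list's median and filled red circles for an adjusted p under 0.05 from edgeR. The medians lie between -0.35 (pericyte markers) and 0.95 (contractile members), and the filled circles are SMTN and RGS5.

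The other EMT factors gave no call. Of 9 tested, 0 passed an adjusted p of 0.05 with edgeR, DESeq2 or limma-voom, and with edgeR 2 had an unadjusted p under 0.05, with a median log2 fold change of 0.10. The most abundant were TCF12, TCF4 and SOX9, which neurons and Mueller glia use, with log2 fold changes of 0.20, 0.17 and 0.10. In TCF12, TCF4 and KLF8, 3 of the 9, every PVR value exceeded the normal ones, beside 13.4% of all genes tested. KLF8, a zinc-finger repressor, had 361, 383 and 451 counts in normal retina against 429, 615 and 513 in PVR retina, a log2 difference of 0.50 (edgeR's adjusted p = 0.21). FOXC1, a forkhead factor of mesenchyme, had a log2 value of -0.73 (edgeR's adjusted p = 0.566) with overlapping groups. These last 2 genes were chosen after their values had been seen. SNAI1, the factor most often named as the first step of EMT, had 9 counts in normal replicate 3 and 0 in the other samples. Of 12 epithelial junction and keratin genes tested, 0 passed with edgeR and 2 had an unadjusted p under 0.05, with a median of 0.11. DESeq2, which tested 16 genes of the list, gave 2 higher and 1 lower, and limma-voom gave 0 of the 12. Among the 12 genes, DESeq2's adjusted p was under 0.05 for CDH1 (higher, 0.000457) and KRT18 (lower, 0.00334). Its other higher gene was not among the 12 that edgeR tested. CDH1 and KRT18, which went opposite ways, were also the genes with an unadjusted p under 0.05 from edgeR. KRT18, a keratin of simple epithelia, had 148, 157 and 65 counts in normal retina against 35, 30 and 40 in PVR retina, a log2 difference of -1.72 (adjusted p = 0.0799 by edgeR). The tight-junction gene TJP1, the most abundant of the list, differed by -0.18 on the log2 scale (edgeR's adjusted p = 0.586), and by 0.07 without normal replicate 2. Of the 9 cadherins and catenins, 0 passed with edgeR, where 2 had an unadjusted p under 0.05, or with limma-voom, and 1 was higher with DESeq2. CTNND1, which encodes the p120 catenin that stabilizes cadherins at the membrane, was separated without overlap by 0.38 on the log2 scale (edgeR's adjusted p = 0.105).

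Markers of the cells that could carry these genes moved as follows, and their part in the values above was not tested. Vessel walls are a usual source of ACTA2, TAGLN, CNN1 and MYL9. Of 8 pericyte markers, 0 were higher and 1 was lower at an adjusted p of 0.05: RGS5, with 133, 485 and 953 counts in normal retina against 3, 10 and 10 in PVR retina. The list summed to 25 to 67 CPM in the normal samples and 21.7 to 35.2 CPM in the PVR samples, lowest in PVR replicate 2. DESeq2 also gave 1 lower, and limma-voom 0. KCNJ8, a channel of pericytes, had 11, 11 and 100 counts in normal retina against 36, 0 and 83 in PVR retina. Of 11 endothelial markers, 0 were higher and 2 lower (VWF and CDH5), and the list summed to 609 to 664 CPM in the normal and 705 to 727 CPM in the PVR samples, nearly all of it from KDR and FLT1. DESeq2 gave 4 lower and limma-voom 1. CDH5 had 24 to 103 counts in normal retina against 0, 0 and 1 in PVR retina. Of 7 pigment epithelium markers tested, 0 were higher and 2 lower (LRAT and TTR) with edgeR, 3 were lower with DESeq2 and 0 with limma-voom, and the 9 genes of the list summed to 311 to 519 CPM against 254 to 272 CPM. Of 8 macrophage markers, 1 was higher with DESeq2 and 0 passed with limma-voom or with edgeR. With edgeR, 3 of the 8 had an unadjusted p under 0.05, beside 21.2% of all genes tested. All 8 log2 fold changes were above 0, with sums of 22.6 to 50.7 CPM against 55.3 to 70.7 CPM. Of 8 astrocyte and Mueller glia markers, 0 were higher and 2 lower (GLUL and RLBP1) with edgeR, 3 were lower with DESeq2 and 2 with limma-voom, and the sums were 2300 to 3020 CPM against 2220 to 2370 CPM. GFAP, the filament of reactive glia, stood at 58.7, 182 and 247 CPM in normal retina against 439, 452 and 391 CPM in PVR retina, a log2 difference of 1.39 that missed the threshold (edgeR's adjusted p = 0.143). Of 10 oligodendrocyte markers, 0 were higher and 3 lower (MAG, MOBP and SOX10) with edgeR, 9 were lower with DESeq2 and 0 with limma-voom, and edgeR gave 8 lower without normal replicate 1. Without normal replicate 2, edgeR gave 0 lower pericyte, oligodendrocyte and pigment epithelium markers and 1 lower in each of the endothelial and glial lists, and without PVR replicate 1 it gave 0 in all of these lists. All 10 oligodendrocyte log2 values were below 0, with sums of 229 to 1200 CPM against 134 to 155 CPM.

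**Figure D5:**
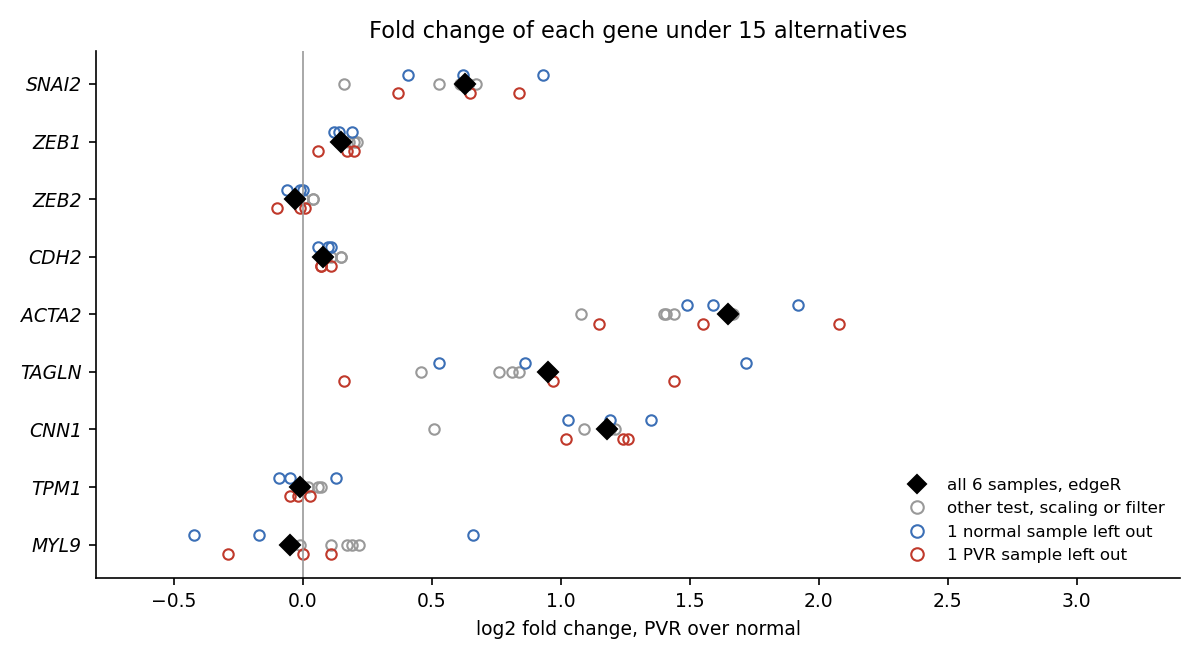
Log2 fold change of the 9 genes tested with all samples in edgeR (diamond), with other tests, scalings, units and filters (grey), and with 1 normal (blue) or 1 PVR sample (red) left out. ACTA2, CNN1, TAGLN and SNAI2 stay above 0 throughout, with ACTA2 between 1.08 and 2.08, whereas ZEB2, TPM1 and MYL9 fall on both sides of 0.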

How the data were processed

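Polyadenylated RNA of 6 retina samples was sequenced by the study. The authors deposited raw counts per gene, made with HISAT2 on the OryCun2.0 genome and HTSeq after trimming with fastp. The strand setting is not given in the sources used here. The deposited FPKM values were computed by the authors from the same counts, as the ratio of the tables gave 1 length per gene in all samples (largest relative difference 4.24e-09).

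The count test was edgeR 4.0.16 (R 4.3.3): default filter (18697 genes kept), TMM factors, quasi-likelihood test with the condition as its term, and Benjamini-Hochberg adjustment over all genes tested. A gene was called where its adjusted p was under 0.05 and its fold past 1 on the log2 scale. CPM values use TMM-scaled library sizes. The alternatives used DESeq2 1.42.0 and limma 3.58.1. The tests were checked on simulated counts of 18697 genes, 200 of them changed, at an adjusted p of 0.05. There edgeR recovered 130 with 14 false calls, DESeq2 155 with 52 and limma-voom 128 with 10. A result from DESeq2 alone is to be read with this higher number of false calls. Depth was 31904593 to 43035080 counts. Poisson intervals cover counting error only, since reads are not independent molecules. With 3 samples against 3, an exact permutation test cannot go under p = 0.1, so none was used.

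The members and lists were chosen with earlier results of these data known. Named were the 10 members, list genes past an adjusted p of 0.05 and the 3 other genes of each list with the highest FPKM. Any further gene was chosen after its values had been seen. MYL6, RDH5, C1QA and C1QB were matched through RefSeq identifiers of mOryCun1.1, used for names only. No genome positions or sequences are given, because a reference of the files' build was not used here. The photoreceptor list is not reported here beyond a check of the tissue.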

Additional observations from a re-analysis of the deposited data

How the results depend on the processing

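No member was called higher or lower under 14 of the 15 alternatives. With DESeq2, 1 member was called higher and 1 passed the adjusted p alone, ACTA2 in each case (log2 fold change 1.65, adjusted p = 0.0158). DESeq2 called 807 of all genes where edgeR called 188. Leaving out single samples gave 0 members in each of the 6 tests, although the number of all genes called ran from 22 to 436. The replicate block gave 0 members and 82 genes. The deviations of same-numbered samples had correlations across genes of -0.013, 0.073 and 0.042, beside -0.083 to 0.043 for differently numbered ones. With 3 samples in each condition, these values cannot show whether the numbers pair the samples. On the log2(FPKM + 1) scale, 87 genes were called. The log2 fold changes of SNAI2, ZEB1, CDH2, ACTA2, TAGLN and CNN1 kept their sign in all 15 alternatives. The other values, all near 0, did not. ZEB2 was 0.04 on both FPKM scales and between -0.10 and 0.01 with a sample left out. TPM1 was 0.02 with upper-quartile factors, 0.06 and 0.07 on the FPKM scales, and between -0.09 and 0.13 with a sample left out. MYL9 was 0.19 with limma-voom, 0.11 and 0.22 on the FPKM scales, 0.17 with the replicate block, and between -0.42 and 0.66 with a sample left out. The cause was not tested. TWIST1 was tested by DESeq2, which gave it no adjusted p, and without the filter. Counts of at most 34 in SNAI2 and 5 in TWIST1 limit what a difference in these genes could show.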

Other observations

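An excess of some skeletal muscle transcripts was seen in a single library. In normal replicate 1, ACTA1 had 414 counts, MYH1 60 and TNNC2 58, whereas the other samples had at most 11, 5 and 1. ACTN3 and MYH4, of the same list, had 118 and 11 counts there, against 47 to 94 and 2 to 9 elsewhere. DES, an intermediate filament of all muscle types and one of the contractile genes, had 186 counts in normal replicate 1, 7 and 12 in the other normal samples, against 68, 22 and 152 in PVR retina. Its log2 fold change was 0.22 with all samples and 3.10 without normal replicate 1 (adjusted p = 0.183 from edgeR). TPM2, shared by skeletal and smooth muscle, had 546 counts in normal replicate 1 and 196 to 376 elsewhere. Its log2 fold change was -0.46 with all samples and -0.05 without normal replicate 1. The genes of this paragraph were singled out after their values had been seen, and whether muscle attached to the eye was in the sample was not tested.

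KRT19, a keratin of simple epithelia, was under the filter on low counts. It had 1, 5 and 1 counts in normal retina against 27, 7 and 96 in PVR retina, so its highest samples were PVR replicates 1 and 3, as for ACTA2. Unlike for ACTA2, PVR replicate 2 was also above every normal sample in CPM, at 0.208 against at most 0.129. CALD1 and FLNA, actin-binding proteins of smooth muscle and other cells, had 1891 and 4856 counts in normal replicate 2, against 691 and 919, and 2805 and 2303, in the other normal samples. Without normal replicate 2, the log2 fold change of FLNA was 0.96 (adjusted p = 0.0426 from edgeR) in place of 0.58, and that of CALD1 was 0.23 in place of -0.31.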
